A study of Homo sapiens with 12 samples.

Results

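KCTD12, MAP1B, MMD, LRRC32, DCUN1D3, TMEM158, CEMIP2, STXBP6 and PTH2 are 9 genes whose signal stood among the larger rises when Wnt3a was given to CHRF288-11 cells. They were chosen by that rise, so the difference between Wnt3a-treated and untreated cells is given here as a description with no test. The array held 13 probes for these genes among 48803, and CEMIP2 carries its older symbol TMEM2 in the deposited file. Of these, 11 probes were among the 14051 that passed the detection filter and were tested, and each of the 9 genes kept at least 1 probe. The filter asked for a detection p under 0.01 on at least 3 of the 12 arrays, where the detection p compares a probe with the negative controls of its array. The brightest tested probe of each of the 9 genes was detected on 12 of 12 arrays and is the one described first.

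CHRF288-11 is a human megakaryoblastic leukaemia line, and total RNA from it was hybridized to Illumina BeadChips. There were 4 groups of 3 arrays, which the series calls biological replicates: Untreated, Wnt3a treated at 150 ng/mL, Wnt5a treated at 1200 ng/mL, and both recombinant ligands together. All groups were kept without serum for 16 h beforehand, treatment lasted 8 h, and no vehicle control is described. Each ligand was given at 1 dose, so that ligand and amount of protein cannot be told apart. The arrays lay on 2 chips of 6 arrays, and the 3 combination arrays shared chip 2 with Untreated 1, Wnt3a 1 and Wnt5a 2. Chip was therefore a term of every fit, and the combination can be set beside another group within a chip only on chip 2.

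Between 12511 and 14088 probes were detected on an array, and mean signals ran from 312.1 to 378.3. Of 18 megakaryocyte and platelet markers, 15 were detected on all 12 arrays, with PF4 and PPBP detected on 0. Their summed signal was 40727.4 to 48737.1 in untreated cells, 45367.3 to 46404.9 with Wnt3a, 42953.8 to 47540.4 with Wnt5a and 39449.1 to 45112.5 with both. Every combination array lay below every Wnt3a array in this sum, and the other pairs of groups overlapped. The sum used deposited signals with no normalization or chip term, and the 3 combination arrays all lay on chip 2. Their mean signals were 312.1, 331.4 and 347.5, against 376.1 and 364.8 on the 2 Wnt3a arrays of chip 1. Of the 15 tested markers, limma called 2 lower with both ligands than in untreated cells, where 3.32% of all tested probes were called lower. They were GP1BA at -0.43 (adjusted p = 0.00507) and THBS1 at -0.28 (adjusted p = 0.0424). Against untreated cells, 1 marker was also called lower with Wnt3a alone and 1 with Wnt5a alone. The shares of all tested probes called lower were then 0.576% and 2.33%. Between the combination and Wnt3a, 0 markers were called. The part of chip in the lower sum, and the part of that sum in the results below, were not tested. Among markers of other lineages, 2 of 5 lymphoid, 2 of 5 monocyte and granulocyte, 3 of 5 erythroid and 0 of 4 epithelial genes were detected on all 12 arrays. In RNA from whole cultures, a change in RNA per cell and a change in the share of cells that carry it cannot be told apart.

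Wnt ligands bind Frizzled receptors at the cell surface. Wnt3a usually acts with the LRP5 or LRP6 co-receptor to keep beta-catenin from being degraded, and beta-catenin then enters the nucleus and acts on genes with TCF and LEF factors. Wnt5a usually acts without beta-catenin and in many cells opposes that branch. Both ligands have been studied in blood stem cells and in the megakaryocytes that release platelets.

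The 9 genes have unlike roles. LRRC32, also called GARP, holds latent TGF-beta at the surface of platelets and regulatory T cells. CEMIP2 is a membrane protein linked to the breakdown of hyaluronan at the cell surface, and TMEM158 is a membrane protein first described in cells with active Ras. MMD is a multi-pass membrane protein of the progestin and adiponectin receptor family, named for its rise as monocytes become macrophages. PTH2 encodes a neuropeptide that activates the parathyroid hormone 2 receptor. Inside the cell, KCTD12 is an auxiliary subunit of GABA-B receptors and MAP1B a microtubule-associated protein best known in neurons. DCUN1D3 takes part in the attachment of NEDD8 to cullins, and STXBP6, or amisyn, binds syntaxins of the membrane fusion machinery.

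On GRCh38.p14 the genes lie on 9 chromosomes, so that none of them is a neighbour of another. RefSeq gives KCTD12 at chr13:76880175-76886405, MAP1B at chr5:72107475-72209565, MMD at chr17:55392622-55421835, LRRC32 at chr11:76657524-76670747 and DCUN1D3 at chr16:20854925-20900358. TMEM158 lies at chr3:45224466-45226287, CEMIP2 at chr9:71683366-71769466, STXBP6 at chr14:24809454-25050147 and PTH2 at chr19:49422419-49423441.

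The 250 bases before the gene start, from RefSeq on GRCh38.p14, are shown for 1 gene of each pattern described below: KCTD12, which was lower when Wnt5a was added to Wnt3a, MMD, for which no effect of Wnt5a was called, and PTH2, which Wnt5a also raised. All 3 lie on the minus strand, at chr13:76886406-76886655, chr17:55421836-55422085 and chr19:49423442-49423691, and are written 5′ to 3′ in the direction of the gene. Capitals mark the letters GGGCGG or their reverse complement, the GC box bound by Sp1-like factors.

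KCTD12: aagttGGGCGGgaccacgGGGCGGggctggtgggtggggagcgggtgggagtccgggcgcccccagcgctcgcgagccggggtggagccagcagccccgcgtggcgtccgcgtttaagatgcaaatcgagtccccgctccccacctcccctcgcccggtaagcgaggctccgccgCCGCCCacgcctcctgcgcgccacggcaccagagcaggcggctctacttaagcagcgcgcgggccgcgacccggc
MMD: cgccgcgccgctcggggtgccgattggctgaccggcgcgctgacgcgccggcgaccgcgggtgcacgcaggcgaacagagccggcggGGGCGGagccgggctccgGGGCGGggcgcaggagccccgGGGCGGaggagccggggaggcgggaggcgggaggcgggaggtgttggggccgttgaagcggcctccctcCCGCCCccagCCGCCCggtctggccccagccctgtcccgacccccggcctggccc
PTH2: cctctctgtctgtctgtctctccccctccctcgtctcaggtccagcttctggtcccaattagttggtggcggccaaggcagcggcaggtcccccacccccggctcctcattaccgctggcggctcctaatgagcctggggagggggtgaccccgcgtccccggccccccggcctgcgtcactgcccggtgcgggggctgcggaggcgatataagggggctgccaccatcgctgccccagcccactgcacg

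KCTD12 has 3 GC boxes in this window, MMD 5 and PTH2 0, and their G+C contents are 75.6%, 82.4% and 70.0% against a median of 58.0% over all windows. RefSeq windows were matched for 8 of the 9 genes, 11 windows in all. The letters CTTTG followed by AA, AT, TA or TT, the core bound by TCF and LEF factors, were searched on both strands. They occur in 0 of the 11 windows and in 4199 (12%) of 35116 windows of the same length. The GC box occurs in 8 of the 11 windows, from 7 genes, and in 42.6% of all windows. The letters TATAAA, the TATA box, occur in 2 windows, both of MAP1B, and in 10.7% of all. A missing match says only that those letters are not in the window.

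The deposited signals, before background correction and normalization, placed every Wnt3a array above every untreated array for all 9 genes, as their choice implies, and differed between genes in where the Wnt5a and combination arrays lay. KCTD12 gave 204.9, 258.7 and 217.9 on Untreated 1, 2 and 3, and 498.9, 638.9 and 523.4 on Wnt3a 1, 2 and 3. It gave 202.9, 228.7 and 224.0 on Wnt5a 1, 2 and 3, and 250.3, 331.0 and 331.4 on combination 1, 2 and 3. The untreated and Wnt5a arrays overlapped, every Wnt3a array was above all others, and the combination lay between them with its lowest array inside the untreated range. Signals in the following sentences are in the same order of groups and arrays.

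DCUN1D3 gave 234.0, 231.8 and 263.1 in untreated cells and 493.0, 411.8 and 429.4 with Wnt3a. With Wnt5a it gave 217.8, 184.9 and 222.7, and with both 300.5, 254.3 and 283.5. All Wnt5a arrays lay below all untreated arrays, and the combination overlapped the untreated arrays and stayed well short of Wnt3a alone.

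TMEM158 gave 761.6, 1013.3 and 1076.1 in untreated cells and 1574.6, 1919.9 and 1740.4 with Wnt3a. Wnt5a gave 729.9, 608.3 and 836.9, and with both 923.2, 1059.8 and 1081.4. Before normalization the combination thus lay at the level of the untreated signals and the Wnt5a arrays reached lower. Untreated 1, on chip 2, was the dimmest untreated array for this gene, as it was for CEMIP2, STXBP6, LRRC32, MMD, MAP1B, KCTD12 and PTH2.

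CEMIP2 gave 553.1, 728.0 and 742.6 in untreated cells and 1248.8, 1280.5 and 1324.3 with Wnt3a. On the Wnt5a arrays the signals were 537.2, 502.7 and 472.9, and with both 833.4, 781.4 and 871.1. Its 4 groups did not overlap: Wnt5a was lowest, then untreated cells, then the combination, then Wnt3a.

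MAP1B gave 142.9, 155.7 and 159.0 in untreated cells and 323.7, 342.3 and 318.3 with Wnt3a. With Wnt5a alone it stood at 159.3, 186.0 and 181.7, and with both 240.8, 289.4 and 279.8. The order was untreated, Wnt5a, combination, Wnt3a, with the untreated and Wnt5a arrays almost touching.

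MMD gave 436.0, 487.2 and 518.5 in untreated cells and 1063.9, 1048.6 and 1158.3 with Wnt3a. The Wnt5a arrays read 514.5, 454.0 and 590.0, and with both 809.6, 862.9 and 900.9. Untreated and Wnt5a arrays overlapped, and all arrays that received Wnt3a lay far above them.

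LRRC32 gave 843.2, 950.6 and 1112.2 in untreated cells and 1840.5, 2026.7 and 1887.7 with Wnt3a. In cells given Wnt5a it was 1082.9, 995.0 and 1112.7, and with both 1556.1, 1315.1 and 1687.8. As for MMD, the untreated and Wnt5a arrays overlapped and the arrays with Wnt3a, alone or with Wnt5a, stood above them.

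STXBP6 gave 110.2, 131.1 and 130.6 in untreated cells and 136.2, 177.9 and 170.6 with Wnt3a. Signals with Wnt5a were 111.5, 102.7 and 108.4, and with both 132.9, 124.6 and 140.4. Neighbouring groups in the order Wnt5a, untreated, combination, Wnt3a overlapped by at least 1 array each.

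PTH2 gave 140.4, 203.1 and 176.2 in untreated cells and 369.1, 421.3 and 456.7 with Wnt3a. Wnt5a arrays showed 366.2, 294.1 and 412.4, and with both 489.2, 523.5 and 580.1. Here every array that received a ligand was above every untreated array, the single ligands overlapped each other, and the combination was above both.

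**Figure D1:**
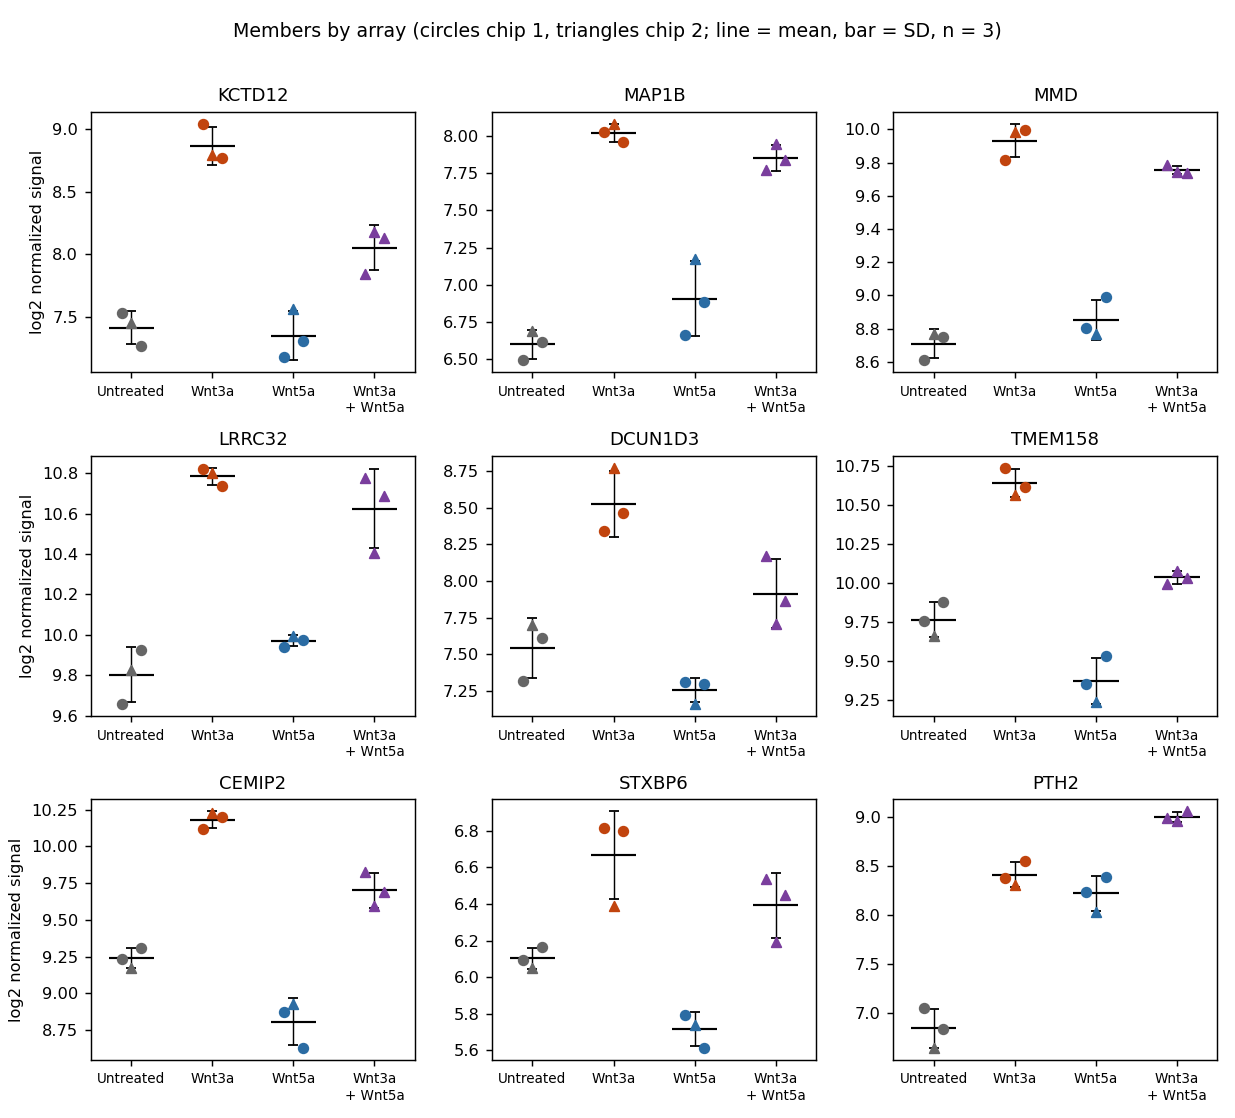
Normalized log2 signal of the brightest tested probe of each of the 9 genes (y axis) in the 4 groups (x axis), with circles for chip 1, triangles for chip 2, lines for group means and bars for the SD of 3 arrays. The Wnt3a arrays stand above the untreated arrays in all 9 panels, and PTH2 is the panel in which Wnt5a alone also stands high.

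After normalization, the rise with Wnt3a alone ran from 0.56 to 1.57 on the log2 scale, with a median of 0.98. PTH2 rose most, by 1.57 ± 0.08 (SE, 3 arrays against 3), which is 2.96-fold, and was rank 2 of the 14051 tested probes by size of rise. KCTD12 was rank 4 at 1.46 ± 0.12, MAP1B rank 5 at 1.42 ± 0.09 and MMD rank 7 at 1.22 ± 0.08. The next were DCUN1D3 at 0.98 ± 0.13 (rank 10), LRRC32 at 0.98 ± 0.10 (rank 11), CEMIP2 at 0.94 ± 0.09 (rank 13) and TMEM158 at 0.87 ± 0.07 (rank 18). STXBP6 was rank 56 at 0.56 ± 0.11, and is thus the member nearest the edge of the set. These values chose the genes, and nothing is read from them.

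Of the 15 largest fitted rises, 7 belonged to the brightest probes of these genes and 8 to other probes. The others were LRRC75A at rank 1, EPAS1, which encodes the oxygen-regulated factor HIF-2-alpha, at rank 3, probes of SPRY1, a feedback inhibitor of ERK signalling, at ranks 6, 8 and 12, ST8SIA4 at rank 9, CITED4 at rank 14 and EFNB1 at rank 15. ST8SIA4 and CITED4 were detected on 0 untreated arrays. The set is therefore a choice among the strongly raised genes and not the complete top of the list. Over all probes, 1.53% were called in this comparison at an adjusted p under 0.05, 0.954% higher, and all 9 genes were among them, as their choice implies.

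The rise was seen on both chips. On chip 1, 2 arrays against 2, it was 1.51 for KCTD12, 1.44 for MAP1B, 1.23 for MMD, 0.99 for LRRC32, 0.94 for DCUN1D3, 0.86 for TMEM158, 0.89 for CEMIP2, 0.68 for STXBP6 and 1.52 for PTH2. On chip 2, 1 array against 1, the same genes gave 1.35, 1.38, 1.22, 0.97, 1.07, 0.90, 1.05, 0.34 and 1.65. STXBP6 differed most between chips in proportion to its size.

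Adding Wnt3a to cells that also received Wnt5a gave the one comparison that shares no array with Wnt3a against untreated cells. Its fit still shares the chip term and the estimate of spread with that comparison. The genes were chosen with earlier results of these data known, so this is not an independent test. STXBP6 was rank 56 of the tested probes with Wnt3a alone and rank 11 here. All 9 genes were higher with both ligands than with Wnt5a alone, by 0.55 to 0.95 on the log2 scale with a median of 0.78, against a median of -0.01 over all tested probes. By limma with Benjamini-Hochberg adjustment over all tested probes, 6 of the 9 passed: PTH2, MMD, CEMIP2, MAP1B, STXBP6 and TMEM158. The background share was small, with 17 of 14051 probes called (0.121%), all of them higher. For all 9 genes the chip-adjusted values of the 3 combination arrays lay above those of the 3 Wnt5a arrays, which held in that direction for 9.79% of all tested probes.

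Among the genes for membrane and secreted proteins, PTH2 rose 1.93-fold (95% interval 1.68 to 2.21, adjusted p = 0.00103). MMD rose 1.86-fold (1.62 to 2.14, adjusted p = 0.00165), CEMIP2 1.82-fold (1.56 to 2.12, adjusted p = 0.00298) and TMEM158 1.70-fold (1.51 to 1.92, adjusted p = 0.00165). LRRC32 did not pass, at 1.55-fold (1.31 to 1.83, adjusted p = 0.0639). Its interval, which is not adjusted for the number of probes, lies above 1, and the value on chip 2 alone was the same 0.63 on the log2 scale as the fitted one.

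Among the genes for intracellular proteins, MAP1B rose 1.75-fold (1.5 to 2.04, adjusted p = 0.00399) and STXBP6 1.71-fold (1.42 to 2.06, adjusted p = 0.0333). KCTD12 was at 1.57-fold (1.27 to 1.93, adjusted p = 0.17) and DCUN1D3 at 1.47-fold (1.17 to 1.84, adjusted p = 0.291), and neither passed. The STXBP6 call was the least steady of the 6: it was held in 6 of 21 alternative settings, whereas those of MAP1B, MMD, TMEM158, CEMIP2 and PTH2 were held in 21 of 21. LRRC32 passed in 7 of the 21 settings and KCTD12 in 4.

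The other 11 called probes were 3 of SPRY1 and 1 each of EPAS1, LRRC75A, NKD1, EFNB1, RAB3C, PLA2G10, MAP3K12 and LOC645466. NKD1, an inhibitor of Wnt signalling that beta-catenin itself turns on, was detected on 3 of 3 arrays of each group with Wnt3a and on 0 of 3 arrays of each group without it. NKD1 thus passed the filter only through the groups in which it was high, so its call is a description and no support.

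**Figure D2:**
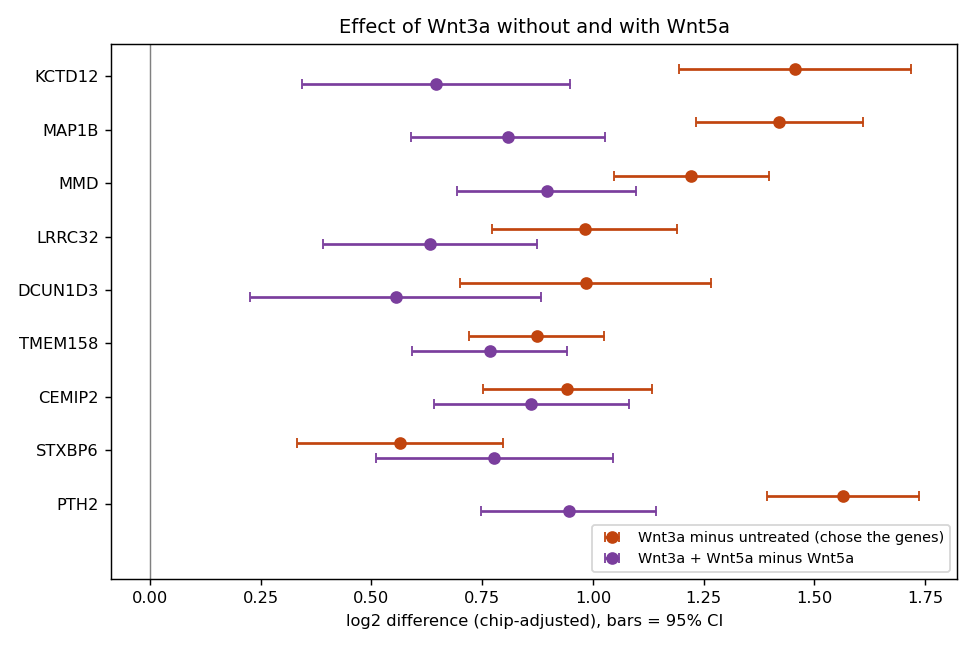
Log2 difference made by Wnt3a (x axis, bars are 95% confidence intervals) for each of the 9 genes, without Wnt5a in orange (the comparison that chose the genes) and on top of Wnt5a in purple. All 9 purple points lie between 0.55 and 0.95, and the purple point is left of the orange one for each gene except STXBP6.

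The rise on top of Wnt5a minus the rise without it contains the comparison that chose the genes, so it is given with its error and no test. It was -0.81 ± 0.18 for KCTD12, -0.62 ± 0.12 for PTH2, -0.61 ± 0.13 for MAP1B and -0.43 ± 0.20 for DCUN1D3, the last at -0.25 without Wnt3a 1 and -0.68 without Wnt5a 2. It was nearer 0 for LRRC32 at -0.35 ± 0.15, MMD at -0.33 ± 0.12, TMEM158 at -0.11 ± 0.11, CEMIP2 at -0.08 ± 0.13 and STXBP6 at 0.21 ± 0.16. In the table of log2 values made by the authors, KCTD12 stayed furthest from 0 at -0.55, but the order of the next genes changed. There it was -0.32 for DCUN1D3 and for LRRC32, -0.28 for MAP1B, -0.27 for MMD and -0.21 for PTH2. The terms of this difference do not stand equal, since the genes were chosen for a high value in the comparison without Wnt5a; the part of that choice in these differences was not tested. Over all 14051 probes, limma called 0 for this difference, with 1101 at an unadjusted p under 0.05.

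Wnt5a on top of Wnt3a sorted the genes. The combination was lower than Wnt3a alone for 4 of the 9 (KCTD12, DCUN1D3, TMEM158 and CEMIP2), higher for 1 (PTH2), and not called for the other 4 (MAP1B, MMD, LRRC32 and STXBP6). The background share was 4.63% of tested probes, 1.85% lower and 2.78% higher. The median of the 9 genes was -0.31 on the log2 scale, against -0.01 over all tested probes. This comparison uses the Wnt3a arrays on which the genes were chosen for being high, so a fall here is a sort and not an independent test.

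KCTD12 fell most, by 0.87 on the log2 scale (95% interval -1.18 to -0.57), to 0.545 of its Wnt3a level, with a limma adjusted p of 0.00542. DCUN1D3 fell by 0.72 (-1.05 to -0.39, adjusted p = 0.0206) to 0.608 of its Wnt3a level. With both ligands KCTD12 kept 39.9% of its Wnt3a rise on the log2 scale and DCUN1D3 27.1%. The DCUN1D3 share is loose: its difference between both ligands and untreated cells, 0.27, was 0.14 without combination 1, 0.17 without Wnt5a 2 and 0.37 without combination 2. For neither was a change with Wnt5a alone called: KCTD12 was at -0.06 (-0.33 to 0.20, adjusted p = 0.855) and DCUN1D3 at -0.29 (-0.57 to -0.00, adjusted p = 0.278). A p that misses the threshold does not show that Wnt5a alone left them unchanged, and the interval of DCUN1D3 reaches well below 0.

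TMEM158 and CEMIP2 fell with Wnt5a in both settings. On top of Wnt3a, TMEM158 fell by 0.50 (-0.67 to -0.32, adjusted p = 0.00592) and CEMIP2 by 0.51 (-0.73 to -0.29, adjusted p = 0.016). With Wnt5a alone they fell by 0.39 (-0.54 to -0.24, adjusted p = 0.00619) and by 0.43 (-0.62 to -0.24, adjusted p = 0.0131), to 0.762 and 0.742 of the untreated level. The step from untreated to Wnt3a and the step from Wnt5a to both were close in size for these genes, at 0.87 and 0.77 for TMEM158 and 0.94 and 0.86 for CEMIP2. With both ligands they kept 43.0% and 45.7% of the Wnt3a rise over untreated cells.

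MAP1B, MMD, LRRC32 and STXBP6 were not called in either comparison. On top of Wnt3a, MAP1B was at -0.31 (-0.52 to -0.09, adjusted p = 0.102), MMD at -0.18 (-0.39 to 0.02, adjusted p = 0.274), LRRC32 at -0.18 (-0.42 to 0.06, adjusted p = 0.376) and STXBP6 at -0.17 (-0.44 to 0.10, adjusted p = 0.455). Their intervals allow falls as large as 0.39 to 0.52 on the log2 scale, close to the fitted falls of TMEM158 and CEMIP2. With Wnt5a alone, MAP1B was at 0.31 (0.12 to 0.50, adjusted p = 0.0656), MMD at 0.14 (-0.03 to 0.32, adjusted p = 0.399) and LRRC32 at 0.17 (-0.04 to 0.38, adjusted p = 0.41). STXBP6 was at -0.39 (-0.62 to -0.15, adjusted p = 0.0595), the size at which TMEM158 passed, with a larger error. With 1 array left out, some of these values for Wnt5a alone passed in limma. MAP1B did so without Wnt5a 1, at 0.40 (adjusted p = 0.0165). STXBP6 did so without Wnt3a 1 (adjusted p = 0.0330) and without combination 2 (adjusted p = 0.0358), at -0.39 in both.

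PTH2 was the gene that Wnt5a also raised. Wnt5a alone raised it by 1.37 ± 0.08 on the log2 scale, 2.59-fold (2.30 to 2.92, adjusted p = 3.05e-06), rank 7 of all tested probes in that comparison. The same rise was 1.37 on chip 1 and 1.38 on chip 2. Adding Wnt5a to Wnt3a raised it by a further 0.75 ± 0.09, 1.69-fold (1.47 to 1.93, adjusted p = 0.000913). Its calls in the comparisons with Wnt5a were held in 21 of 21 alternative settings.

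With Wnt5a alone, then, 1 of the 9 genes was called higher, 2 lower and 6 were not called, where 5.25% of tested probes were called, 2.93% higher and 2.33% lower. The untreated arrays in this comparison also chose the genes.

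The falls on top of Wnt3a rest on few arrays. The count of 4 came down to 1 when Wnt3a 1, the 1 Wnt3a array on chip 2, was left out: KCTD12 kept its call (adjusted p = 0.0270), while DCUN1D3 was at 0.294, TMEM158 at 0.118 and CEMIP2 at 0.180. The falls themselves were then -0.54 ± 0.19 for DCUN1D3, -0.46 ± 0.11 for TMEM158 and -0.50 ± 0.14 for CEMIP2, so that for the last pair the error grew while the size changed little. Against that array alone, within chip 2, the 3 combination arrays averaged -0.74 for KCTD12, -0.86 for DCUN1D3, -0.53 for TMEM158 and -0.52 for CEMIP2. Within the same chip MAP1B was at -0.22, MMD at -0.23, LRRC32 at -0.17, STXBP6 at 0.00 and PTH2 at 0.70. DCUN1D3 also lost its call without combination 2 (adjusted p = 0.0530) and without combination 3 (0.0586), as CEMIP2 lost its fall with Wnt5a alone without Untreated 3 (0.0585) and without Wnt5a 3 (0.0667).

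**Figure D3:**
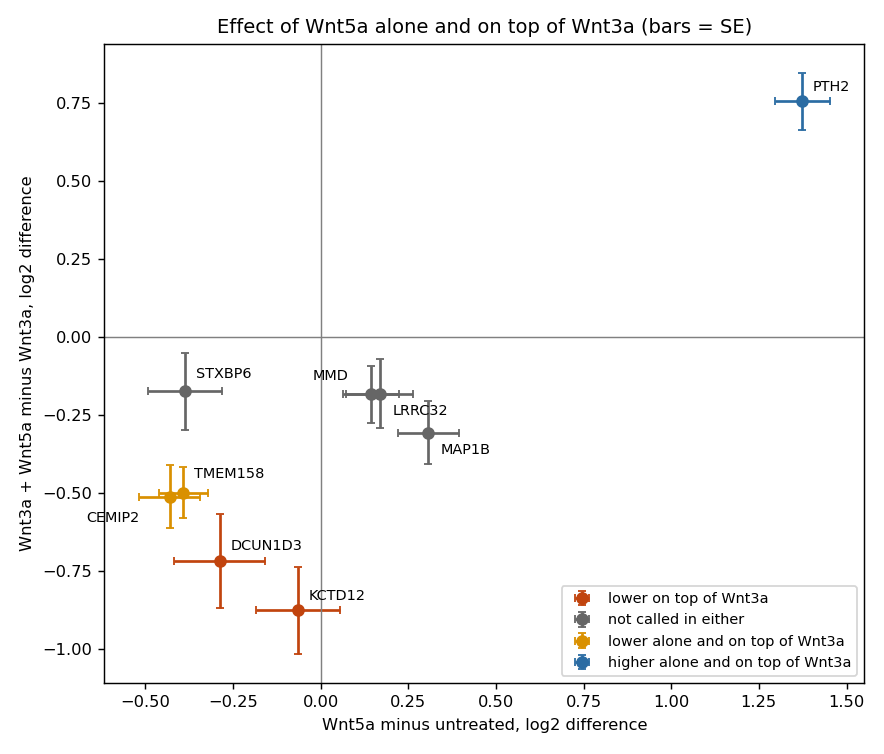
Log2 difference made by Wnt5a alone (x axis) and on top of Wnt3a (y axis) for the 9 genes, with SE bars and a colour for each pattern of calls. PTH2 is high on both axes, TMEM158 and CEMIP2 are low on both, and KCTD12 is the lowest on the y axis with an x value near 0.

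**Figure D4:**
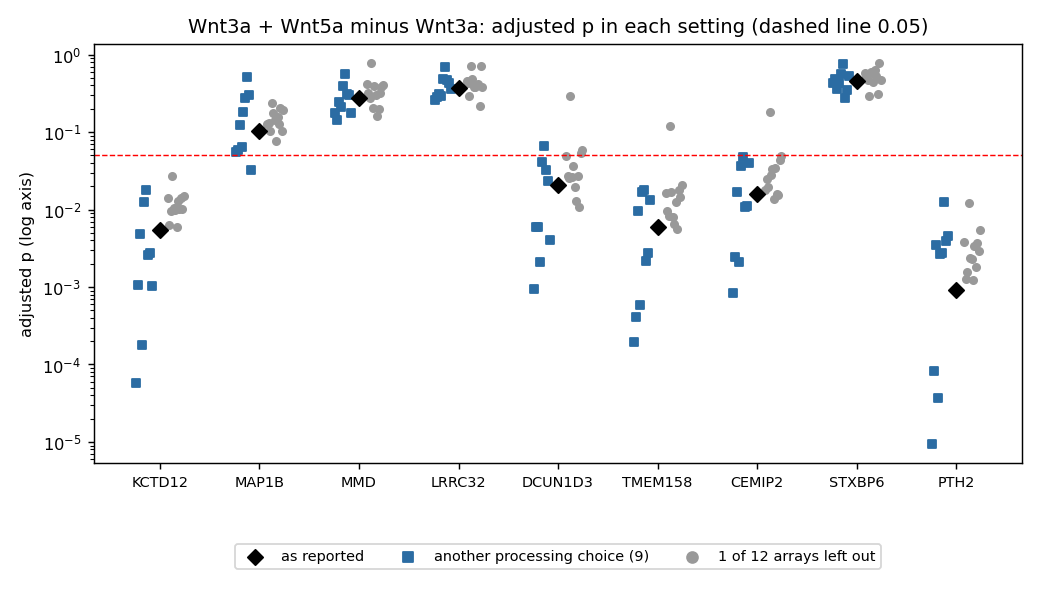
Adjusted p (log axis) of the combination against Wnt3a for each gene, as reported (diamond), under 9 other processing choices (squares) and with 1 of the 12 arrays left out (circles). The KCTD12 and PTH2 symbols all lie under the dashed line at 0.05, while those of MMD, LRRC32 and STXBP6 all lie above it.

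Against untreated cells, both ligands together raised 7 of the 9 genes, where 7.76% of tested probes were called, 4.44% higher and 3.32% lower. PTH2 showed the largest rise of all tested probes, 2.32 ± 0.09 or 4.99-fold (4.35 to 5.72, limma adjusted p = 1.01e-07). MAP1B was at 1.12 ± 0.10 and MMD at 1.04 ± 0.09, both with an adjusted p of 7.93e-05, and LRRC32 at 0.80 ± 0.11 (adjusted p = 0.00121). These 3 kept 78.5%, 85.0% and 81.5% of their Wnt3a rise.

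KCTD12 rose by 0.58 ± 0.14 (adjusted p = 0.0264), CEMIP2 by 0.43 ± 0.10 (adjusted p = 0.0245) and TMEM158 by 0.38 ± 0.08 (adjusted p = 0.0159). Of 21 alternative settings, the call was held in 14 for KCTD12, 16 for CEMIP2 and 19 for TMEM158. All 3 calls were lost without Untreated 1, the one untreated array on the chip of the combination, which left 4 genes called. Without it KCTD12 was at 0.55 ± 0.19 and TMEM158 at 0.38 ± 0.11, about as large with a wider error, and CEMIP2 at 0.31 ± 0.13. STXBP6 at 0.39 ± 0.12 (adjusted p = 0.0791) and DCUN1D3 at 0.27 ± 0.15 (adjusted p = 0.322) did not pass. The untreated arrays are again those that chose the genes.

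KCTD12, MAP1B and STXBP6 had more than 1 probe, and the additional probes were dim. The second KCTD12 probe, ILMN_2229649, gave 66.2 to 80.5 on the 12 arrays and was detected on 0 of them, as was the MAP1B probe ILMN_1678337 at 64.9 to 77.4. They carry no information on the direction of the gene.

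The MAP1B probe ILMN_1680154 was detected on 3 of 3 arrays with Wnt3a and 3 of 3 with both, and on 0 of 3 untreated and 0 of 3 Wnt5a arrays. Its signals were 74.0 to 93.5 untreated, 102.8 to 122.1 with Wnt3a, 74.4 to 86.3 with Wnt5a and 96 to 104.5 with both, so the groups with and without Wnt3a did not overlap. The probe passed the filter only through the groups in which it was high, so this separation is a description and no support for the first probe. It was at least 1.34-fold higher with Wnt3a than untreated, and at least 1.19-fold higher with both than with Wnt5a (limma adjusted p = 0.104). These bounds set the group mean against the lowest detected signal of each dim array and leave out sampling error.

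The second STXBP6 probe, ILMN_1750912, was near background in most groups. It was detected on 1 of 3 untreated, 3 of 3 Wnt3a, 1 of 3 Wnt5a and 0 of 3 combination arrays. It thus passed the filter only through the Wnt3a group, where it was high, and its difference from that group (at least 1.22-fold lower with both, adjusted p = 0.0317) supports nothing. Between both and Wnt5a this probe gives no usable difference, so the values of STXBP6 rest on the first probe alone.

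**Figure D5:**
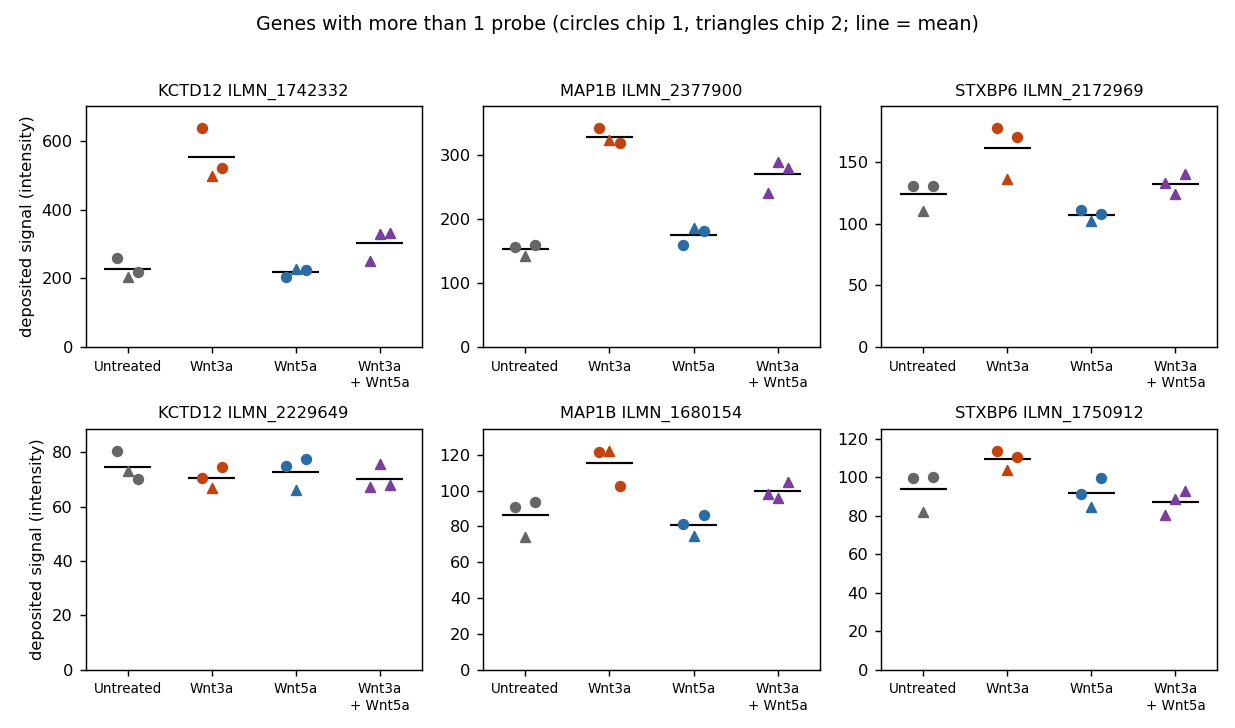
Deposited signal (y axis) of the brightest and of a further probe of KCTD12, MAP1B and STXBP6 in the 4 groups, with circles for chip 1, triangles for chip 2 and lines for means. The further KCTD12 probe stays between 66.2 and 80.5 in all groups, while the further MAP1B probe is higher in both groups that received Wnt3a.

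The likeness of the patterns over the 12 chip-adjusted arrays is a description of shared group differences, since arrays of a group are alike. Between the genes, Pearson's r ran from 0.300 for DCUN1D3 with PTH2 to 0.971 for MAP1B with MMD. The genes most like each one were, for KCTD12, TNFAIP8 (r = 0.966) and EPAS1 (0.957), and for DCUN1D3, HEY1 (0.965) and CRLS1 (0.953). TMEM158 was most like EPAS1 (0.986) and SPRY1 (0.985), and CEMIP2 most like ARL15 (0.987) and SPRY1 (0.985).

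MAP1B and MMD were each other's nearest (0.971), followed by LRRC75A (0.969) for MAP1B and MECOM (0.971) for MMD. LRRC32 was nearest to MMD (0.969) and RBM20 (0.966), and STXBP6 to CEMIP2 (0.951) and ARHGAP21 (0.947). PTH2 was most like 2 probes of ATP1B1, a sodium pump subunit, at 0.984 and 0.977. The 4 genes lowered on top of Wnt3a thus shared neighbours among EPAS1 and SPRY1 for 3 of them, and PTH2 shared none with the rest.

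In 8 lists of family and pathway partners of these genes, 107 genes in all, 70 were tested by their brightest probe. With Wnt3a alone limma called 0 of the 70 higher and 1 lower, STX1A, a syntaxin of regulated secretion, at -0.38 (adjusted p = 0.0347), with 14 at an unadjusted p under 0.05, 6 of them higher. That is 1.43% of the relatives, against 1.53% of all tested probes. The fitted values of the 70 ran from -0.38 to 0.32 with a median of -0.01, against -0.00 over all tested genes. Between both ligands and Wnt5a limma called 0 of the 70, with 6 at an unadjusted p under 0.05, where 0.121% of all tested probes were called.

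Against untreated cells both ligands gave 1 of the 70 relatives higher and 4 lower, 7.14% against 7.76% of all tested probes. With Wnt5a alone 1.43% were called, against 5.25% of all, and on top of Wnt3a 2.86%, against 4.63%. MAP1A, the sister of MAP1B, rose with Wnt5a alone by 0.67 (adjusted p = 0.0016), and by 0.65 on top of Wnt3a (adjusted p = 0.0084). Among the partners of LRRC32 in handling latent TGF-beta, NRROS was at -0.41, LTBP1 at -0.31 and LTBP3, detected on 6 of 12 arrays, at -0.39 with both ligands against untreated cells, each called lower. HYAL3, a hyaluronidase, fell by 0.33 in the same comparison.

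Of 18 feedback and target genes of beta-catenin, 9 were tested, while AXIN2, RNF43, LGR5, NOTUM, DKK1, TCF7, SP5, APCDD1 and SPRY4 were detected on 0 of 12 arrays by their brightest probe. With Wnt3a alone 1 of the 9 was called higher, NKD1, and 1 lower, CCND1, which encodes cyclin D1, at -0.61 (adjusted p = 0.0332). NKD1 passed the filter only through the groups with Wnt3a, in which it was high, so its call is a description. The median of the 9 tested target genes was 0.09, against 0.98 for the 9 genes described here, which were chosen for that difference. On top of Wnt3a, Wnt5a lowered 4 of the 9, LEF1 at -0.48, TNFRSF19 at -0.63, MYC at -0.29 and CCND1 at -0.69, and raised NKD2 by 0.57. Of all tested probes, 1.85% were called lower and 2.78% higher there. Wnt5a alone also lowered 3 of the 9, TNFRSF19 at -0.59, MYC at -0.45 and CCND1 at -1.06, and raised NKD2 by 0.61. The shares of all tested probes were then 2.33% lower and 2.93% higher. LEF1 was at -0.25 with Wnt5a alone and was not called (limma adjusted p = 0.0853). Of 27 Wnt receptors and transducers, 14 were tested, and LRP5 was the one called, higher by 0.65 with Wnt5a, by 0.63 with both and by 0.64 on top of Wnt3a.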

How the data were processed

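Signals of 12 BeadChip arrays were analysed. The authors deposited an intensity for each of 48803 probes that had not been normalized. They also deposited a detection fraction, which was 1 for the brightest probes, so 1 minus it served as the detection p. A table of log2 values made by the authors was an alternative only. The submitters' processing notes name lumi, with no role or version. Symbols came from the platform annotation for 27578 probes and from the deposited file alone for 21212, among them the described probes of PTH2 and MAP1B (not ILMN_1680154), both ATP1B1 probes and LOC645466.

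Background was corrected by normexp, with negative controls inferred from the detection p and an offset of 16, followed by quantile normalization and log2 (limma 3.58.1, R 4.3.3). A probe was tested if its detection p was under 0.01 on 3 or more arrays, which left 14051. The limma model (lmFit, eBayes) had 4 group means and a chip term over all 12 arrays, with 7 residual and 5.05 prior degrees of freedom. Tests were two-sided, with Benjamini-Hochberg adjustment over all tested probes and a threshold of 0.05. The scripts were tested on simulated data.

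The genes, lists and tests were chosen with earlier results of these data known. Named were all 9 genes, the 2 probes most like each, other probes among the 15 largest rises with Wnt3a, and called genes of the lists. The series calls the arrays biological replicates but does not say that they came from separate cultures, so p-values measure the spread between these arrays. Whether replicate numbers pair the arrays is not known. Deviations of arrays with the same number correlated at -0.41 to 0.41, over 0.1 in 9 of 18 pairs. Arrays with unlike numbers were not compared, so these values cannot decide it. Alternatives changed the background correction, values, scaling, offset, filter, chip term, replicate block and the array left out. The number of arrays limits the precision.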

Additional observations from a re-analysis of the deposited data

How the results depend on the processing

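The 9 genes were higher with both ligands than with Wnt5a in all 189 of 189 values over 21 settings. Of 1134 values for the genes, 1037 kept their direction and their side of the threshold, or moved by less than the spread between arrays. 37 lost a call, 20 gained one, 36 only moved and 4 changed sign. The sign changes were near 0: KCTD12 with Wnt5a alone was at 0.0135 both without Untreated 2 and without Wnt5a 1, in a range of -0.18 to 0.0135 over the arrays left out. The difference between the Wnt3a effects with and without Wnt5a was 0.0268 for CEMIP2 without Wnt5a 2 (range -0.14 to 0.0268) and -0.0029 for STXBP6 without Wnt3a 1 (range -0.0029 to 0.37). In the authors' value table the Wnt3a rise was 0.92 for KCTD12, 0.69 for MAP1B, 0.61 for DCUN1D3, 0.19 for STXBP6 and 0.85 for PTH2, over 1.5 times smaller than reported. Both ligands against Wnt5a shrank likewise to 0.37 for KCTD12, 0.41 for MAP1B, 0.29 for DCUN1D3 and 0.23 for STXBP6, whose call was lost (limma adjusted p = 0.118). PTH2 was at 0.73 with Wnt5a alone and 1.37 with both against untreated cells, KCTD12 at 0.34 and MAP1B at 0.53 with both, and DCUN1D3 at -0.47 on top of Wnt3a, with no call lost. The cause was not tested.

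With no background correction the probes called were 344 for Wnt3a alone, 1062 for Wnt5a on top of Wnt3a, 28 for Wnt3a on top of Wnt5a and 1 for the interaction. In the authors' table they were 346 for Wnt3a alone, 991 for Wnt5a on top of Wnt3a and 1 for the interaction. Median scaling gave 371 for Wnt5a on top of Wnt3a, and it moved the share of higher calls for Wnt3a alone from 62.3% to 82.6%. With a detection p under 0.05, and more probes tested, the counts were 131 for Wnt3a alone, 616 for both ligands and 343 for Wnt5a on top of Wnt3a. With no filter they were 119, 456 for Wnt5a alone, 520 for both and 269. Wnt5a on top of Wnt3a gave 396 without a chip term and 413 with chip as a random block, against 650.

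Leaving out 1 array gave 75 to 233 for Wnt3a alone, 378 to 764 for Wnt5a alone, 231 to 1321 for both, 86 to 901 for Wnt5a on top of Wnt3a, 11 to 18 for Wnt3a on top of Wnt5a and 0 to 0 for the interaction. Of the 9 genes, 5 to 7 were then higher with Wnt3a on top of Wnt5a, 1 to 2 higher and 1 to 3 lower with Wnt5a alone, 1 to 4 lower and 1 to 1 higher with Wnt5a on top of Wnt3a, and 4 to 8 higher with both. MAP1B was the gene added to those higher with Wnt5a alone when Wnt5a 1 was left out. The replicate block also raised that count from 1 to 2 by adding MAP1B (adjusted p = 0.0197 by limma). It called MAP1B lower on top of Wnt3a (adjusted p = 0.0327). Whether the numbers pair the arrays is not known, so nothing is read from this block. DCUN1D3 also lost its fall on top of Wnt3a with no filter (adjusted p = 0.0654).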
